A study of Rattus norvegicus with 12 samples.

Results

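A set of 10 genes of triglyceride synthesis, lipolysis and lipid droplet coating were followed in the livers of alcohol-drinking and water-drinking rats. They were chosen by name: Gpam, Agpat2, Lpin1, Lpin2, Dgat1, Dgat2, Pnpla2, Pnpla3, Plin2 and Cidec. Of these 10 genes, 8 were listed under their own names among 34391 transcripts, and Plin2 was found under its older symbol Adfp, which makes 9 measured genes. No transcript was matched to Pnpla3, and it has no value here. Where a gene had more than 1 transcript, the one with the highest mean level over the 12 livers was used.

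All 12 animals were female rats of the inbred alcohol-preferring iP10a line, a strain bred for voluntary drinking. The EtOH group held 6 animals that could drink 10, 20 and 30% ethanol as well as tap water for 23 weeks, and the Control group held 6 animals with water only. Both groups ate freely, so that intake of food was not matched between them. At collection 11 animals were 38 weeks old and 1 EtOH animal was 39 weeks old. Poly(A) RNA of whole liver was sequenced with 1 library per animal, and levels are given as RPKM, that is reads per kilobase of transcript, scaled to the mapped reads of the library. RPKM allows for transcript length, so levels can be set side by side between genes.

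In the liver, triglyceride is built on a glycerol 3-phosphate backbone, to which acyl chains are added one after the other. Gpam encodes the mitochondrial glycerol-3-phosphate acyltransferase that adds the first chain, Agpat2 the enzyme that turns lysophosphatidate into phosphatidate, Lpin1 and Lpin2 the phosphatidate phosphatases that make diacylglycerol, and Dgat1 and Dgat2 the enzymes that add the last chain. The product is stored in droplets, which Plin2 coats and on which Cidec promotes fusion, and Pnpla2 encodes adipose triglyceride lipase, which starts the breakdown of the stored lipid.

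Lpin1 was higher in the EtOH livers, at 1.86 times the mean RPKM of Control livers, and it was the 1 measured gene of the 9 that passed the test. The other 8 did not pass. For each of 21718 transcripts above 0 in at least 1 liver, log2(RPKM + 0.5) was quantile normalized and compared with limma, and a transcript was called at a Benjamini-Hochberg adjusted p below 0.05. This rule called 2.42% of all tested transcripts, and 1.13% were called as higher in EtOH livers. In an alternative limited to a mean of at least 1 RPKM, 860 of 11086 transcripts and 3 of the 9 genes were called. Of the 9 genes, 5 had a negative and 4 a positive log2 difference, and the median of the 9 was -0.071, beside 0.00019 over all tested transcripts. An unadjusted p below 0.05 was found for 4 of the 9 (Lpin1, Lpin2, Plin2 and Agpat2), against 15.5% of all tested transcripts. In RNA from whole liver, fewer cells of a type and less RNA per cell cannot be told apart.

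**Figure D1:**
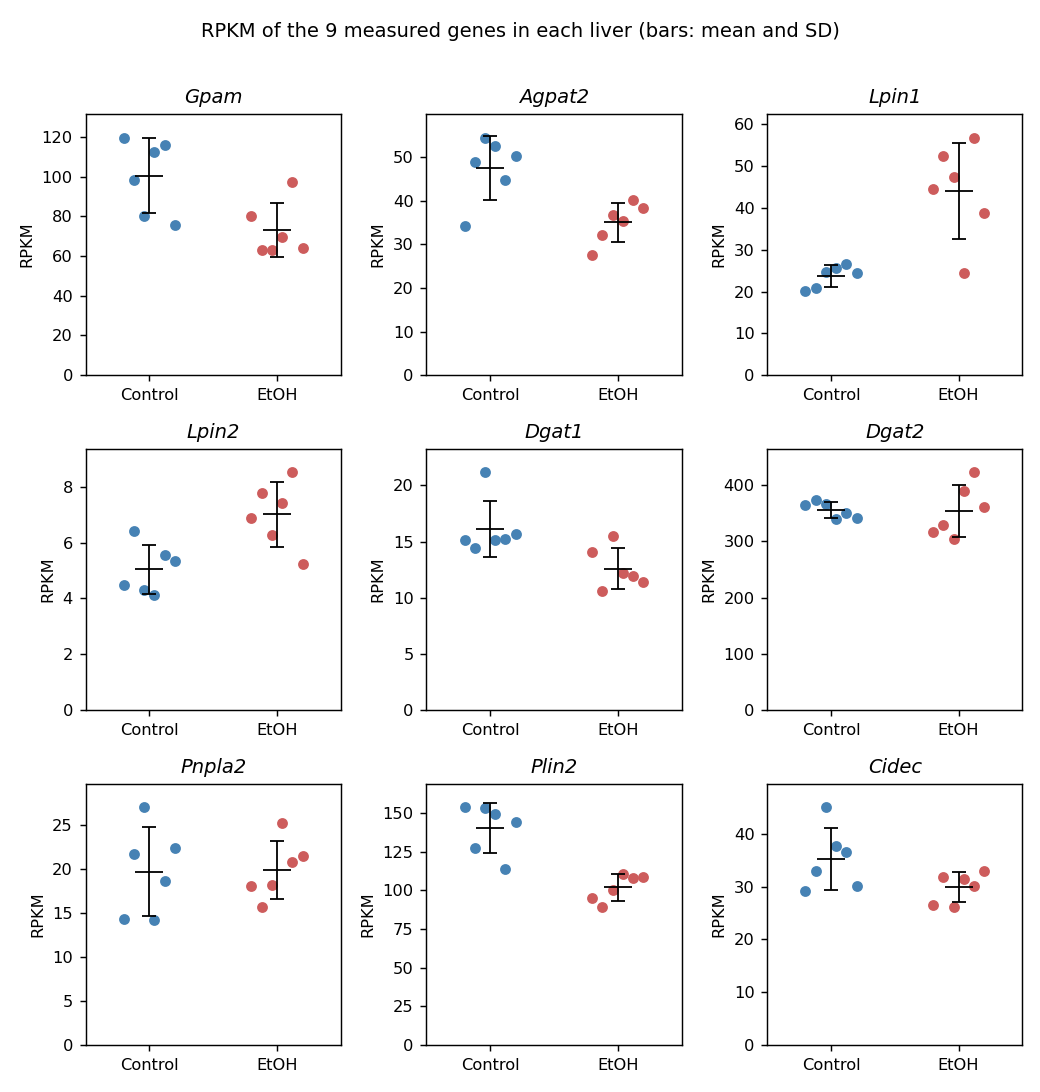
RPKM (vertical axes, each from 0) of the 9 measured genes in the 6 Control livers (blue) and the 6 EtOH livers (red), 1 point per liver, with the mean and SD in black. Lpin1 lies higher in 5 of the 6 EtOH livers than in any Control liver, and Plin2 lies lower in all 6.

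The scale on which the livers are compared affects these genes. In the RPKM values as deposited, transcripts with a mean of 10 to 100 RPKM had a median log2 difference of -0.15 between EtOH and Control livers, and those of 100 to 1000 RPKM one of -0.12. After quantile normalization these medians were 0.0013 and -0.0022. For transcripts of 1 to 10 RPKM, the level of Lpin2, the medians were -0.040 as deposited and 0.013 after normalization. A ratio of mean RPKM is therefore more negative than the normalized difference for most genes below, and each value is given with its scale. The EtOH libraries were also deeper, with 3945593 to 6030028 reads against 2610238 to 4318141 in Control livers (two-sided exact permutation test, n = 6 per group, p = 0.0108). The part of depth in the results was not tested.

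Hepatocyte transcripts dominated the libraries, with Alb at a mean of 70352 RPKM in Control and 79085 RPKM in EtOH livers. The adipocyte markers Adipoq, Lep and Plin1 were listed at 0 in all 12 livers. The summed level of the 5 measured hepatocyte markers was 84401 to 112662 RPKM in Control and 92640 to 118742 RPKM in EtOH livers. Some markers of other liver cells differed: 2 of 4 measured Kupffer cell markers (Cd163 and Clec4f) and 1 of 4 endothelial markers (Cdh5) were called higher in EtOH livers. Of all tested transcripts, 1.13% were called higher. None of the 5 hepatocyte, 3 adipocyte, 5 stellate cell and 4 cholangiocyte markers that were tested was called by limma. Of these, 2 of the stellate cell markers and 0 of the others had an unadjusted p below 0.05, against 15.5% of all tested transcripts. Alb and Tf could not be called, because quantile normalization left them no difference between groups (log2 differences of 1.9e-15 and 1.1e-16). The summed level of the Kupffer cell markers was 67.1 to 108 RPKM in Control and 95.4 to 126 RPKM in EtOH livers, and that of the endothelial markers 27.7 to 35.2 and 32.7 to 45.5 RPKM. For stellate cell markers the sums were 5.28 to 9.75 and 8.15 to 13.2 RPKM, for cholangiocyte markers 4.37 to 8.27 and 3.90 to 7.87 RPKM, and for adipocyte markers 4.46 to 10.7 and 4.31 to 7.30 RPKM. Their part in the results was not tested.

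Lpin1 encodes lipin 1, which besides its phosphatase activity acts in the nucleus as a coactivator of genes of fatty acid oxidation. The transcript is listed on chromosome 6 from 40253665 to 40297195, with positions here and below as the authors list them, in a genome build not given in the sources used here. In Control livers its level ran from 20.1 RPKM through a median of 24.5 to 26.6 RPKM. In EtOH livers it ran from 24.5 through 45.9 to 56.8 RPKM. The 6 Control livers lay close together, whereas the EtOH livers spread more widely, with a coefficient of variation of 25.9% against 11.2%. EtOH animal 4, at 24.5 RPKM, lay within the range of the Control livers, and the other 5 EtOH livers were above all of them.

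The mean level of Lpin1 was 23.7 ± 2.66 RPKM in Control and 44.1 ± 11.4 RPKM in EtOH livers (SD, n = 6 each). The normalized log2 difference was 1.00 with a standard error of 0.18, a 95% interval of 0.62 to 1.39 and an adjusted p of 0.0158 by limma. After quantile normalization the groups no longer overlapped, which held for 2.59% of all tested transcripts. Reads behind these values numbered 165 to 897 per liver. Leaving out EtOH animal 4 gave a log2 difference of 1.16 and an adjusted p of 0.00089, and over all 12 livers left out in turn the limma difference was 0.92 to 1.16 with adjusted p of 0.00089 to 0.0407. A second Lpin1 transcript was nearly silent, above 0 in 5 of 12 livers and never over 2.52 RPKM, with a log2 difference of 0.54, a standard error of 0.55 and a limma adjusted p of 0.658.

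The promoters of Lpin1, of its paralogue Lpin2 and of Plin2 are shown because these are the measured genes with the smallest p in the comparison. Each runs from 250 bases before to 50 bases after the start of the gene, 5′ to 3′ on the strand of the gene, from RefSeq for the GRCr8 build. Capitals mark matches to the motifs searched. The Lpin1 promoter is chr6:45108893-45109192 on the minus strand, the Lpin2 promoter chr9:118530105-118530404 on the plus strand, and the Plin2 promoter chr5:106228969-106229268 on the minus strand, the more upstream of 2 starts listed.
Lpin1: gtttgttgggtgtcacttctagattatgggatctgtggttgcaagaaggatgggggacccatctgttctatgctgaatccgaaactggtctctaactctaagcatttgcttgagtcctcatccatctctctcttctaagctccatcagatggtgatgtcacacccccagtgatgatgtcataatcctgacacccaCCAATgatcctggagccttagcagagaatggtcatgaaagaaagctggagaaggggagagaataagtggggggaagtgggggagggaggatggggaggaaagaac
Lpin2: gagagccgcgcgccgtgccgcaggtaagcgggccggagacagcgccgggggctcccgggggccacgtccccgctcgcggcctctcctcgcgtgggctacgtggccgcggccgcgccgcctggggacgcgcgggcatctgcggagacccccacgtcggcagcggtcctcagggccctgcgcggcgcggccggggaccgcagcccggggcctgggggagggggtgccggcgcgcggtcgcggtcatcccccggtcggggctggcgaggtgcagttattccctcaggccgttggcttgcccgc
Plin2: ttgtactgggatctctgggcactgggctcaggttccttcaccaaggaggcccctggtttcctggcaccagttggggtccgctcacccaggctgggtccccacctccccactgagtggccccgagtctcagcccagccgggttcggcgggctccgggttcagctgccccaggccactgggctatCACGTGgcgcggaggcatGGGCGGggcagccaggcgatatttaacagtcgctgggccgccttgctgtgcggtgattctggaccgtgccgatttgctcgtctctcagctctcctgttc

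The lipin promoters differ in base composition, with 49.0% G or C for Lpin1 and 80.0% for Lpin2. The Lpin1 window holds 1 CCAAT box, 55 bases before the start, and the Plin2 window holds an E box (CACGTG) at 67 and a GC box (GGGCGG) at 49 bases before its start. No searched motif was found in the Lpin2 window. The motifs were searched as exact letters on both strands, where N stands for any base, and 8 of the 10 genes had at least 1 promoter, 9 promoters in all. CCAAT was found in 4 of these 9 and in 37.5% of all 33469 rat promoters of the same length, GGGCGG in 4 and in 33.1%, CACGTG in 1 and in 6.42%, and the cAMP response element TGACGTCA in 1 and in 1.83%. None of the 9 held the sterol response element TCACNCCAC (1.12% of all promoters), the glucocorticoid response element (GNACA and TGTNC 3 bases apart, 0.439%), the PPAR response element (2 copies of AGGTCA 1 base apart, 0.0538%) or the TATA box TATAAA (14.2%). A match describes letters in the window and does not show that a factor binds there.

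The second lipin gene was expressed at a lower level. Lpin2, listed on chromosome 9 from 110380692 to 110453397, ran from 4.12 through a median of 4.92 to 6.42 RPKM in Control livers and from 5.21 through 7.14 to 8.51 RPKM in EtOH livers. All 6 EtOH livers were above the Control median and 4 of them were above every Control liver, so that the groups overlapped. The mean in EtOH livers was 39.2% above that in Control livers, at 7.01 ± 1.16 against 5.04 ± 0.889 RPKM (SD, n = 6 each). The normalized log2 difference was 0.53 (standard error 0.14, 95% interval 0.22 to 0.83) and missed the threshold with a limma adjusted p of 0.0735. It passed when the test was limited to transcripts averaging 1 RPKM or more (adjusted p of 0.0370 by limma) and when EtOH animal 6, the lowest EtOH liver, was left out (also 0.0370). Only 46 to 153 reads per liver lay behind these values, and at 46 reads counting alone gives a relative error of 14.7%.

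The ratio of the 2 lipins was computed within each liver, which removes any scaling shared by both genes. The shift in the deposited values differed between the levels of Lpin1 and Lpin2 (medians of -0.15 and -0.040). Part of that shift can therefore remain in the ratio. Lpin1 exceeded Lpin2 by 4.74 times in Control livers (geometric mean, range 3.24 to 6.22) and by 6.15 times in EtOH livers (3.31 to 7.54). In 5 of 6 EtOH livers the ratio was above that of every Control liver, and in EtOH animal 4 it was near the lowest Control value. The log2 ratio differed by 0.38 between groups, and this did not pass a two-sided exact permutation test over the livers (n = 6 per group, p = 0.128, adjusted over the 2 paralogue pairs 0.128). Without EtOH animal 4 the difference was 0.56 (exact permutation p = 0.00649, not adjusted). With any other liver left out, the unadjusted exact permutation p was 0.0866 to 0.258.

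**Figure D2:**
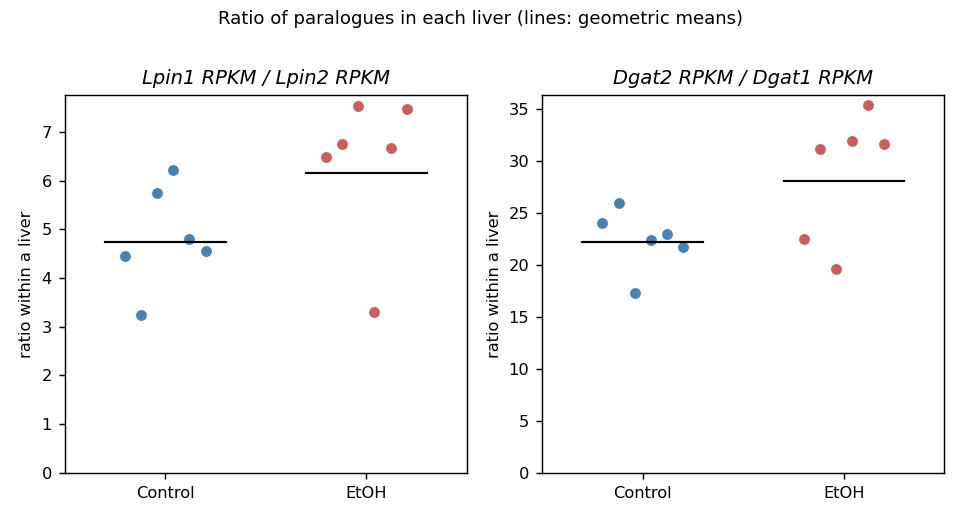
Ratio of the RPKM of Lpin1 to Lpin2 (left) and of Dgat2 to Dgat1 (right) within each liver, on linear axes from 0, with 1 point per liver and a line at the geometric mean of the group. The Lpin1 to Lpin2 ratio of EtOH animal 4 is 3.31, where the other 5 EtOH livers lie between 6.48 and 7.54.

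Among all transcripts with a mean of at least 1 RPKM, the 2 whose normalized levels followed Lpin1 most closely over the 12 livers were Skap2 and Eif4b. Skap2, which encodes a Src kinase-associated adaptor, had a Pearson correlation of 0.923 with Lpin1, and Eif4b, which encodes a translation initiation factor, one of 0.919. They were taken as the highest of 11085 correlations, the 12 livers form 2 groups, and no test was made. Skap2 was at 8.78 ± 0.775 RPKM in Control and 10.8 ± 1.04 RPKM in EtOH livers, and Eif4b at 62.1 ± 3.81 and 70.9 ± 3.66 RPKM (SD, n = 6 each). In EtOH animal 4 both were at their lowest value of the 6 EtOH livers, 9.22 RPKM for Skap2 and 65.6 RPKM for Eif4b. They were picked for following Lpin1, itself lowest in that liver among the EtOH livers, so this is not a separate observation.

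The acyltransferases of the first steps had lower mean RPKM in EtOH livers but did not pass the test. Gpam, on chromosome 1 from 261370166 to 261401568, ran from 75.8 through a median of 105 to 120 RPKM in Control livers and from 63.0 through 66.8 to 97.3 RPKM in EtOH livers. The EtOH values lay below the Control median in 6 of 6 livers and below every Control liver in 4, and EtOH animal 5 was the highest of its group. The mean RPKM was 27.4% lower in EtOH livers (72.9 ± 13.6 against 100.4 ± 18.8 RPKM, SD, n = 6 each). The normalized log2 difference was -0.29 (standard error 0.14, 95% interval -0.60 to 0.02, limma adjusted p of 0.367).

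Agpat2, on chromosome 3 from 4769863 to 4781045, ran from 34.3 through 49.5 to 54.5 RPKM in Control livers and from 27.5 through 36.1 to 40.1 RPKM in EtOH livers. Control animal 1 was the lowest of its group, and without it the groups would not touch. The mean RPKM was 26.3% lower in EtOH livers (35.0 ± 4.56 against 47.5 ± 7.29 RPKM, SD, n = 6 each), and the normalized log2 difference was -0.27 (standard error 0.10, 95% interval -0.50 to -0.04, limma adjusted p of 0.227). A second Agpat2 transcript was listed at 0 in all 12 livers.

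For the last step, Dgat2 was the most abundant of the 9 genes and Dgat1 was present at a small part of its level. Dgat2, on chromosome 1 from 156447588 to 156478740, ran from 339 through 357 to 373 RPKM in Control livers and from 303 through 345 to 422 RPKM in EtOH livers. Its means were within 0.541% of each other (354 ± 45.9 RPKM in EtOH and 356 ± 14.1 RPKM in Control livers, SD, n = 6 each), but the EtOH values fell on both sides, with 3 livers below and 2 above the whole Control range. The coefficient of variation was 13.0% in EtOH and 3.97% in Control livers. The normalized log2 difference was 0.10 (95% interval -0.07 to 0.26, limma adjusted p of 0.626), and without normalization between livers it was -0.017.

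Dgat1, on chromosome 7 from 114552056 to 114562425, ran from 14.4 through 15.2 to 21.2 RPKM in Control livers and from 10.6 through 12.1 to 15.5 RPKM in EtOH livers. In 5 of 6 EtOH livers it lay below every Control liver, and Control animal 3 stood above the rest of its group. The mean RPKM was 21.8% lower in EtOH livers (12.6 ± 1.82 against 16.1 ± 2.51 RPKM, SD, n = 6 each), with a normalized log2 difference of -0.20 (standard error 0.10, 95% interval -0.42 to 0.02, limma adjusted p of 0.397). The reads numbered 77 to 181 per liver.

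Within a liver, Dgat2 exceeded Dgat1 by 22.2 times in Control livers (geometric mean, range 17.3 to 25.9) and by 28.1 times in EtOH livers (19.6 to 35.4). The log2 ratio of Dgat1 to Dgat2 was lower by a difference of -0.34 in EtOH livers and did not pass (two-sided exact permutation test, n = 6 per group, p = 0.0563, adjusted over the 2 pairs 0.113). Leaving out Control animal 2, EtOH animal 1 or EtOH animal 3 brought the unadjusted exact permutation p to 0.0411, 0.0390 and 0.0173, with differences of -0.38, -0.40 and -0.44. With any other liver left out, this p was 0.0693 to 0.115. The ratio of Pnpla2 to Pnpla3 could not be formed.

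The droplet coat gene Plin2 was at a lower RPKM in each of the 6 EtOH livers than in all 6 Control livers. Listed as Adfp on chromosome 5 from 105718496 to 105732817, it ran from 114 through a median of 147 to 154 RPKM in Control livers and from 89.4 through 104 to 111 RPKM in EtOH livers. It was the 1 gene of the 9 without overlap between groups in the deposited values, which held for 3.10% of all tested transcripts in either direction and for 2.43% as lower in EtOH livers. The mean RPKM was 27.5% lower in EtOH livers, at 102 ± 8.56 against 141 ± 16.1 RPKM (SD, n = 6 each). After quantile normalization the groups overlapped, and the log2 difference was -0.30 (standard error 0.08, 95% interval -0.48 to -0.12, limma adjusted p of 0.0857), which did not pass.

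The Plin2 result depended on the scale and on 1 liver. With no normalization between livers the log2 difference was -0.46 (limma adjusted p of 0.0118), with median scaling it was -0.37 (0.0448), and with transcripts limited to a mean of at least 1 RPKM it was -0.30 (0.0464). Without Control animal 5, the lowest Control liver, it was -0.37 (limma adjusted p of 0.0228). At 720 to 1255 reads per liver, counting gives a relative error of at most 3.73%, which is below the coefficients of variation of 11.5% in Control and 8.39% in EtOH livers.

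Cidec, the droplet fusion gene, is listed on chromosome 4 from 149307989 to 149321303. It ran from 29.1 through 34.8 to 45.0 RPKM in Control livers and from 26.2 through 30.7 to 33.0 RPKM in EtOH livers. All 6 EtOH livers were below the Control median, yet 4 of them lay inside the Control range. The mean RPKM was 15.4% lower in EtOH livers (29.8 ± 2.85 against 35.3 ± 5.89 RPKM, SD, n = 6 each), and the normalized log2 difference was -0.07 (95% interval -0.26 to 0.11, limma adjusted p of 0.703).

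The lipase gene Pnpla2, on chromosome 1 from 201641939 to 201647021, did not differ detectably. It ran from 14.2 through 20.2 to 27.0 RPKM in Control livers and from 15.7 through 19.5 to 25.2 RPKM in EtOH livers, so that the EtOH range lay inside the Control range. The means were 19.7 ± 5.02 and 19.9 ± 3.33 RPKM (SD, n = 6 each). The 95% interval of the normalized log2 difference, -0.14 to 0.52 around 0.19, leaves room for a change in either direction (limma adjusted p of 0.623). A second Pnpla2 transcript was listed at 0 in all 12 livers.

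**Figure D3:**
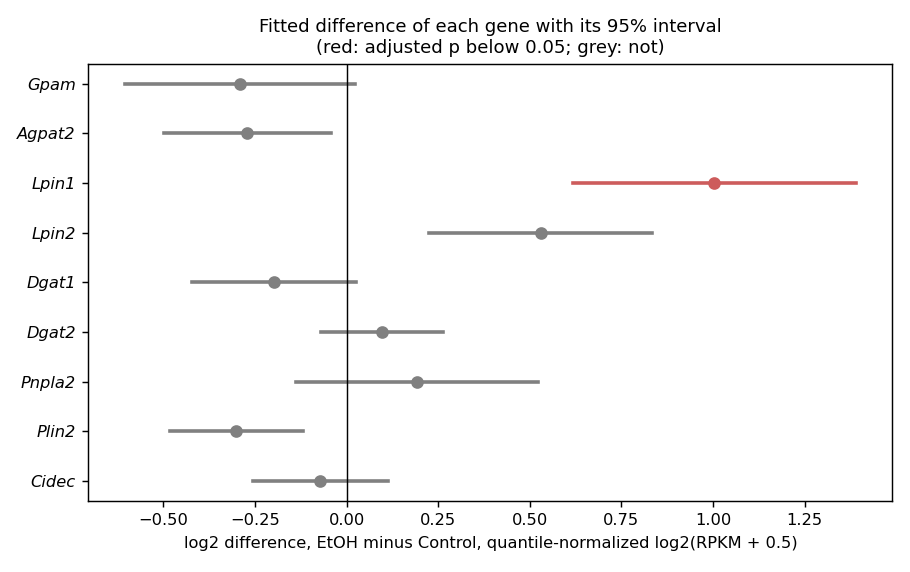
Normalized log2 difference between EtOH and Control livers (horizontal axis, log2 units, EtOH minus Control) for each of the 9 genes, as points with 95% intervals from limma. Red marks the adjusted p below 0.05 of Lpin1, at 1.00, and grey marks the other 8 genes, which lie between -0.30 (Plin2) and 0.53 (Lpin2).

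By mean RPKM, the order in Control livers was Dgat2, Plin2, Gpam, Agpat2, Cidec, Lpin1, Pnpla2, Dgat1 and Lpin2, with 70.6 times between the first and the last. The ranges of neighbours overlapped for Plin2 and Gpam, Agpat2 and Cidec, Lpin1 and Pnpla2, and Pnpla2 and Dgat1, and not for the other neighbours. In EtOH livers the span was 50.4 times, and Lpin1 stood above Agpat2 and Cidec, although its range overlapped that of Agpat2 (Lpin1 was the higher in 5 of 6 livers). The relative order of the other genes was the same in both groups, and in EtOH livers the ranges of Plin2 and Gpam and of Agpat2 and Cidec also overlapped. EtOH animal 5 had the highest EtOH level for 5 of the 9 genes (Gpam, Agpat2, Lpin1, Lpin2 and Dgat2), and EtOH animal 4, the lowest for Lpin1, was the highest for Pnpla2 and Plin2. Together the 9 transcripts made up 0.135% of the summed RPKM of a Control liver and 0.128% of that of an EtOH liver, on average.

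Of 43 other genes of the pathway in 4 lists, 34 could be tested and 3 were called, 1 higher and 2 lower in EtOH livers, which is 8.82% beside 2.42% of all transcripts. Their median log2 difference was -0.05. The 2.42% is not matched for level. With the test limited to a mean of at least 1 RPKM, 860 of 11086 transcripts and 5 pathway genes were called. These lists were drawn up with earlier results of these data known, so the counts are not independent evidence. An unadjusted p below 0.05 was found for 15.5% of all tested transcripts, the share to set beside the counts for each list below. Of 11 other glycerolipid synthesis genes tested, 0 were called by limma in either direction and 2 had an unadjusted p below 0.05. The smallest p there belonged to Gpd1, which makes glycerol 3-phosphate, at 205 ± 18.7 RPKM in Control and 158 ± 21.9 RPKM in EtOH livers (SD, n = 6 each). Its log2 difference was -0.23 with a limma adjusted p of 0.122. It passed in 2 of 24 alternatives, with no normalization (0.0418) and without EtOH animal 5 (0.0480). The other gene with an unadjusted p below 0.05 was Gk, which went the other way. Gk was at 66.9 ± 8.75 RPKM in Control and 77.6 ± 12.8 RPKM in EtOH livers, with a log2 difference of 0.36 (limma adjusted p of 0.184).

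Of 7 triglyceride lipases and cofactors tested, 1 was called lower and 0 higher, and 5 had an unadjusted p below 0.05. Among these 5, Ces1d, G0s2 and Abhd5 were lower in EtOH livers, and Lipa and Aadac had higher normalized levels. Lipa and Aadac had normalized log2 differences of 0.18 and 0.19 (limma adjusted p of 0.295 and 0.257). Their mean RPKM hardly differed, at 146.8 in Control and 150.2 in EtOH livers for Lipa, and 57.8 and 58.8 for Aadac. The median log2 difference of the list was -0.0083. Ces1d, a carboxylesterase of the endoplasmic reticulum that hydrolyses triglyceride, was at 210 ± 35.2 RPKM in Control and 123 ± 22.8 RPKM in EtOH livers as mean ± SD of 6 livers each. Both groups met only through the lowest Control liver at 161 RPKM and the highest EtOH liver at 163 RPKM. Its log2 difference was -0.63 (standard error 0.12, limma adjusted p of 0.0224). The call held in 23 of 24 alternatives and was just missed without EtOH animal 2 (0.0506). Ces1d has close paralogues next to it, listed separately, and reads shared among them may have been divided by the mapping. The partners of the Pnpla2 lipase were also read, chosen after their values were seen. Its inhibitor G0s2 was at 137 ± 25.2 RPKM in Control and 78.1 ± 23.2 RPKM in EtOH livers, with a log2 difference of -0.68 and a limma adjusted p of 0.0653, and its activator Abhd5 was at 26.8 ± 3.11 and 20.2 ± 2.05 RPKM, with -0.25 and 0.264 (SD, n = 6 each). G0s2 was called in 6 of the 24 alternatives and Abhd5 in 1.

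Of 7 other lipid droplet protein genes tested, 0 were called by limma and 3 had an unadjusted p below 0.05, and Plin1 was listed at 0 in all livers. The smallest p was that of Aup1, a droplet protein that also serves in protein degradation at the endoplasmic reticulum, at 60.7 ± 6.28 RPKM in Control and 47.6 ± 2.91 RPKM in EtOH livers (SD, n = 6 each). Its groups did not overlap in RPKM, and its normalized log2 difference was -0.17 (limma adjusted p of 0.140). It was called in 1 alternative, with no normalization between livers. The other genes with an unadjusted p below 0.05, Rab18 and Hsd17b13, had higher normalized levels in EtOH livers. Their log2 differences were 0.19 and 0.75 (limma adjusted p of 0.141 and 0.203). Rab18 hardly differed in RPKM, at 49.2 ± 3.24 in Control and 49.9 ± 1.76 in EtOH livers. Hsd17b13 was at 37.2 ± 5.54 RPKM in Control and 61.9 ± 28.7 RPKM in EtOH livers. It was at 96.2, 77.5 and 88.3 RPKM in EtOH animals 2, 4 and 5. In EtOH animals 1, 3 and 6, at 38.8, 29.8 and 41.1 RPKM, it lay inside the Control range of 28.7 to 45.9 RPKM. The median log2 difference of this list was 0.067.

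Among 9 regulators tested, 1 was called higher and 1 lower, and 3 had an unadjusted p below 0.05. Of these 3, Ppara was not called, with a log2 difference of 0.59 (limma adjusted p of 0.0962). It was at 12.2 ± 3.46 RPKM in Control and 16.5 ± 2.52 RPKM in EtOH livers. Ppara was called when the test was limited to transcripts averaging 1 RPKM or more. Srebf1, the transcription factor gene that drives fatty acid and triglyceride synthesis, ran from 61.5 to 93.7 RPKM in Control and from 13.6 to 57.8 RPKM in EtOH livers, without overlap. Its log2 difference was -1.22 (standard error 0.26, limma adjusted p of 0.0301), which is opposite in direction to that of Lpin1. Insig2, which encodes a protein that holds SREBP precursors in the endoplasmic reticulum, was at 63.9 ± 6.27 RPKM in Control and 72.0 ± 8.09 RPKM in EtOH livers (SD, n = 6 each), with a log2 difference of 0.32 and a limma adjusted p of 0.0457. Both calls were sensitive to the processing, with Srebf1 called in 14 and Insig2 in 9 of 24 alternatives. For Insig2 the log2 difference was 0.17 with no normalization between livers (limma adjusted p of 0.335), 0.26 with median scaling (0.0989) and 0.29 with limma voom on recovered reads (0.0666), and none of these passed. Srebf1 passed on each of these scales, but missed in the pooled test on square roots, with an adjusted p of 0.0510. The Srebf1 call was lost in 8 of 12 fits that left out a liver (Control animals 1 to 4 and EtOH animals 1, 2, 4 and 6), with limma adjusted p of 0.00829 to 0.0694 over the 12, and the Insig2 call in 9 of 12 (all but those without Control animals 5 and 6 and EtOH animal 1), with 0.0275 to 0.0947.

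**Figure D4:**
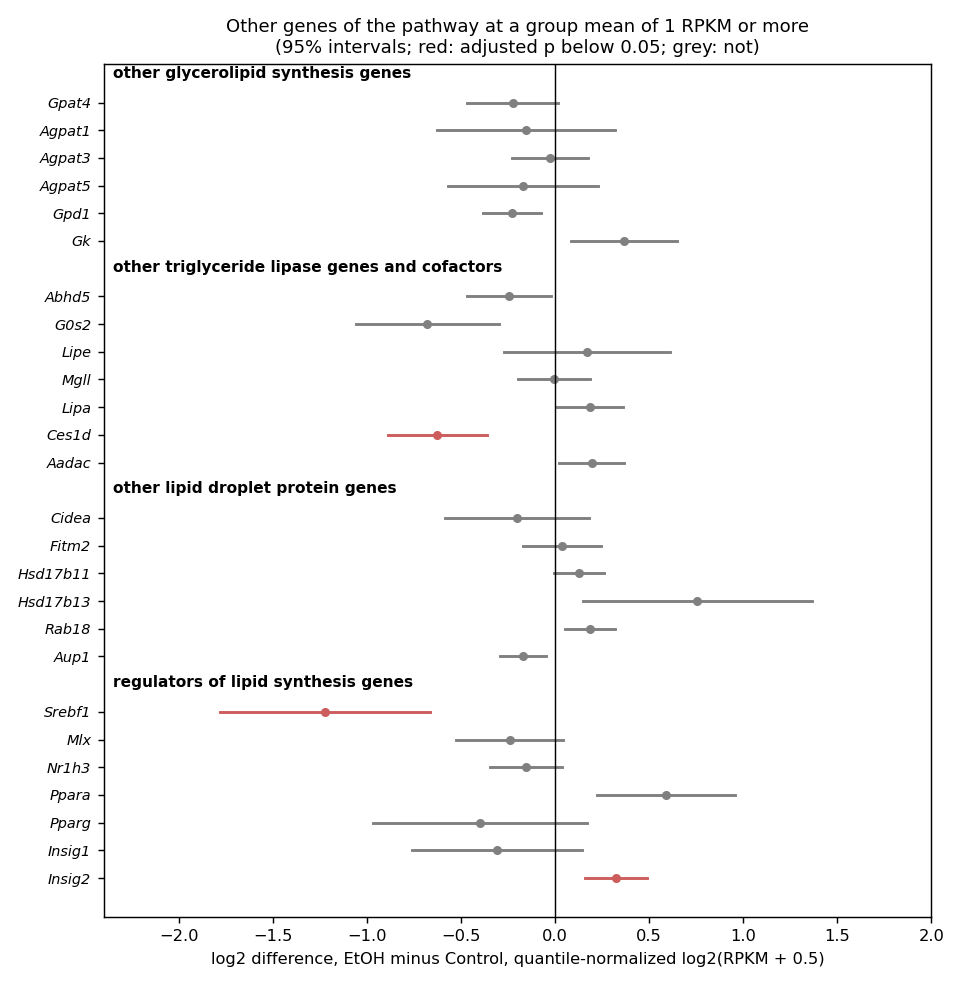
Normalized log2 difference between EtOH and Control livers (horizontal axis, EtOH minus Control) with 95% intervals from limma for the 26 tested genes of the 4 lists with a group mean of at least 1 RPKM. Red marks the 3 called genes, Ces1d at -0.63, Srebf1 at -1.22 and Insig2 at 0.32, and grey marks genes that did not pass.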

How the data were processed

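Hepatic poly(A) RNA of 6 EtOH and 6 Control rats was sequenced in 101-nucleotide paired-end reads, with all libraries in 1 lane. The authors made the RPKM values with CLCbio Genomics Workbench 4.9 and deposited them for each liver, with no transformation. Further columns hold the authors' comparison of the groups (fold, test statistic, p-value, FDR) and were not used. The reads a value rests on were recovered as the smallest whole numbers in the same ratios (tolerance 0.01 reads), which succeeded for 100% of the 21718 detected transcripts. Depth is the sum of these reads. Intervals and relative errors from reads cover counting error only.

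The main test was limma 3.58.1 (R 4.3.3) on log2(RPKM + 0.5), quantile normalized over livers, with a trend of variance on mean, two-sided, Benjamini-Hochberg adjusted over all transcripts. Ratios used exact permutation tests, whose smallest p is 0.00216. Tables were made with Python 3.11.15, pandas 2.3.3, numpy 2.4.6 and matplotlib 3.10.9. In simulated livers, 6 of 100 transcripts changed by 1.5 times were called, and 58 of 100 changed by 2 times. False calls numbered 4. Every simulated transcript was given the same assumed spread between livers, which was not estimated from these data. The shares called therefore do not describe the power for a given gene. Most changes of 1.5 times were missed in this simulation, and a gene that did not pass is not shown to be unchanged. All measured members are named, every called gene and the smallest p of each pathway list, and the 2 transcripts most like a called member. The other pathway genes with an unadjusted p below 0.05 were named after the data were seen. The members and lists were chosen with earlier results of these data known. Plin2 was added through its older symbol, after no row carried its name. Older symbols came from RefSeq (GRCr8) and were accepted only on the same chromosome.

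Alternatives were pseudocounts of 0.1 and 1, no normalization, median scaling, 2 tests on square-root values (limma, and the pooled error term of the study's methods), a mean RPKM of at least 0.1 or 1, no trend, sums over the transcripts of a gene, a replicate block by animal number, leaving out 1 liver at a time, and, added after the data were seen, limma voom on recovered reads and a count without Plin2.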

Additional observations from a re-analysis of the deposited data

Results flagged for a closer look

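Of 22 groups of 6 livers (9 genes and 2 ratios in 2 groups), 2 held a liver far from the others. Chance marks about 1 in 20 groups. Dgat1 in Control animal 3 was at 21.2 RPKM, and the next Control liver was at 15.7 RPKM. Without that animal the log2 difference of Dgat1 was -0.14, with a limma adjusted p of 0.579. The ratio of Lpin1 to Lpin2 in EtOH animal 4 was 3.31, and the next EtOH liver had a ratio of 6.48. The ratio was low through Lpin1, since Lpin2 in that animal, at 7.42 RPKM, was the third highest of the EtOH livers. Without it the difference in log2 ratio rose to 0.56, as given above.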

How the results depend on the processing

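Over 24 alternatives, 208 of 216 fitted differences of the 9 genes kept their direction and their side of the threshold. Lpin1 was called in 23 of them. The animal number as a block (a pairing) left 113 called transcripts, 0 of the 9 genes and 1 other pathway gene (Ces1d; Srebf1 had an adjusted p of 0.0939 and Insig2 one of 0.0672), with an adjusted p of 0.0805 for Lpin1 at a log2 difference of 1.00. The block gave the ratios unchanged differences of 0.38 and -0.34, with exact sign-flip p of 0.219 and 0.0625 (n = 6 pairs). Same-numbered animals did not deviate together (correlations of -0.07 to 0.03, and no animal correlated best with its own number). These correlations pool many transcripts, so they showed no pairing by number but cannot exclude one. A minimum mean of 1 RPKM called 860 of 11086 transcripts, 3 of the 9 genes (Lpin1, Lpin2 and Plin2) and 5 pathway genes. Median scaling called 2 of the 9 (Lpin1 and Plin2), and so did no normalization, which called 6 pathway genes. Without normalization 83.7% of 774 calls were lower in EtOH livers, with median scaling 63.5% of 531, and in the main comparison 53.4% of 526. The pooled test on square roots called 322 transcripts and 1 pathway gene. The sign of Dgat2 turned without normalization, at -0.017. Leaving out 1 liver gave 212 (without EtOH animal 2) to 656 (without Control animal 6) called transcripts, 1 to 2 of the 9 genes, and 0 (without EtOH animal 2) to 4 pathway genes. The total also moved by more than 1.5 times without Control animals 2 and 4 (275 and 285) and EtOH animals 3, 4 and 5 (252, 295 and 298), and pathway calls dropped to 1 without Control animals 1, 2, 3 or 4 or EtOH animal 4. The log2 ratios then ran from 0.27 to 0.56 for Lpin1 to Lpin2 and from -0.44 to -0.27 for Dgat1 to Dgat2. Limma voom on recovered reads called 524 transcripts and Lpin1 alone of the 9, with an adjusted p of 0.0264. Causes were not tested. Depth limits Lpin2 most, at 46 reads in its shallowest liver, and the 95% intervals of Gpam and Dgat1 include no difference.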
